A study of Mus musculus with 14 samples.

Results

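The major urinary protein genes *Mup1*, *Mup2*, *Mup3*, *Mup7*, *Mup10*, *Mup11*, *Mup17*, *Mup20* and *Mup21* were followed in the liver RNA of 14 male TALLYHO mice, a polygenic model of type 2 diabetes. The members are the 9 rows of the count table with these gene names, out of 49 rows named *Mup* and 55487 rows in all. They were selected on their measured levels and on the spread of those levels between the mice, so both are given here as a description and not as a test. Of the mice, aged 8 to 12 weeks, 7 had received water (vehicle-treated mice G1, G4, G6, G9, G10, G11 and G13) and 7 had received 20 mg/kg indole (indole-treated mice G2, G3, G5, G7, G8, G12 and G14). Both groups were gavaged by mouth as 2 doses per day for 7 days and again with 2 doses between the metabolic tests that followed, and the right liver lobe was taken 1 day after the last test. The purpose of the comparison was to ask what repeated indole changes in the liver of a diabetic mouse.

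Major urinary proteins are small barrel-shaped carriers of the lipocalin family. The mouse liver secretes them into the blood, the kidney passes them into the urine, and there they hold and slowly release volatile pheromones. Male mice make more of them than females, and their transcription in hepatocytes is known to follow pulses of growth hormone through its receptor, JAK2 and STAT5B, with androgens, thyroid hormone and glucocorticoids as further regulators. The genes sit side by side in a cluster of recent duplications, and mouse strains are known to differ in which copies they carry and use.

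The libraries held 15197498 to 21060376 counted reads each. Levels are CPM (reads per 1000000 counted reads) after TMM scaling, and spread is the SD between mice within the groups on the log2 CPM scale. All 9 members passed edgeR's filter on low counts, as did 12653 genes in all, and 9 further *Mup* rows passed it too. Hepatocyte markers were high in every mouse, with a sum of 67463 to 102639 CPM over 8 genes (*Alb*, the most abundant, at 47405 CPM or more), while the 6 markers of T and NK cells reached 2.56 CPM at most in sum. Kupffer cell and macrophage markers summed to between 109 and 526 CPM, the highest in G8. Nothing in the labels says whether the mice of a group shared a cage, a litter or a day of collection. Fewer cells of a type and less RNA per cell cannot be told apart in such whole-tissue libraries.

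All 9 members lie on chromosome 4 of GRCm38 (coordinates as in the deposited table), on the minus strand. *Mup7* spans 60066469–60070475, *Mup2* 60135932–60154289, *Mup1* 60498012–60501960, *Mup10* 60578260–60582199, *Mup11* 60658466–60662411 and *Mup17* 61591929–61595871. Farther along, *Mup20*, whose product darcin is the pheromone that attracts females to a male's scent, spans 62050234–62054158, *Mup3* spans 62083476–62087342 and *Mup21* spans 62147932–62150863. All *Mup* rows, 27 of which are labelled as pseudogenes, fall within an interval of 2194060 bases (59956804–62150863).

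How far the copies can be told apart is visible in their coding sequence. A stretch of 60 bases that crosses from exon 2 into exon 3 is shown for each member. This stretch was picked because it told the most members apart, so it is not a typical one. It was read from the GENCODE vM21 transcripts (GRCm38, sense strand) and runs from coding base 212 to 271 in *Mup1*, *Mup2*, *Mup7*, *Mup10* and *Mup17*, from 215 to 274 in *Mup11*, *Mup20* and *Mup21*, and from 224 to 283 in *Mup3*. Capitals mark the bases that differ from the most common base of the 9 members at that position.
Mup1: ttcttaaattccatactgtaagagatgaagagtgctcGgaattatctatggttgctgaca
Mup2: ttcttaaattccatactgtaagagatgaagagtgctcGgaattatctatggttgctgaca
Mup11: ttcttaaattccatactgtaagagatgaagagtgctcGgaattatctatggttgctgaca
Mup7: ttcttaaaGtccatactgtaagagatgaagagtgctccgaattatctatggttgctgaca
Mup17: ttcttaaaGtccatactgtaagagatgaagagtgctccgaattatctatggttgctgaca
Mup10: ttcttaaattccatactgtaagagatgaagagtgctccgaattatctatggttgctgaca
Mup20: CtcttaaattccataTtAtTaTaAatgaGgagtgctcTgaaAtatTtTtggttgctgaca
Mup21: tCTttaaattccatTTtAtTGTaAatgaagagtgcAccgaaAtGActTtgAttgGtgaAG
Mup3: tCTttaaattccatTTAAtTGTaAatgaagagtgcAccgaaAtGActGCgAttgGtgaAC

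The window held 6 distinct sequences among the 9 genes. *Mup1*, *Mup2* and *Mup11* were identical in it, and so were *Mup7* and *Mup17*, which carry the same single departure. *Mup3*, *Mup21* and *Mup20* departed at 20, 18 and 11 bases. Over the whole coding sequence *Mup1*, *Mup2*, *Mup7*, *Mup10*, *Mup11* and *Mup17* shared at least 98.3% of aligned bases with each other. *Mup11* differed by 1 aligned base from *Mup18*, a further copy that is not among the members, and *Mup1* and *Mup2* each differed by 2 bases from their nearest copies, *Mup12* for *Mup1* and both *Mup15* and *Mup9* for *Mup2*. *Mup20* shared 91.3% with its nearest copies and *Mup3* shared 94.8% with *Mup21*.

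The share of a transcript that no other annotated transcript contains followed from this. Of all windows of 100 bases, 97.1% were unique to the gene in *Mup3*, 95.5% in *Mup21*, 61.2% in *Mup20* and 40.6% in *Mup17*. The share was 16.5% in *Mup11*, 14.6% in *Mup10*, 12.9% in *Mup7*, 12.8% in *Mup1* and 2.66% in *Mup2*. For *Mup2* this left 22 of the 828 windows of the single transcript that was read. The counted gene is longer than that transcript in several members. It has 1336 bases against 927 in *Mup2*, 1584 against 927 in *Mup1*, 1391 against 927 in *Mup10* and 1576 against 930 in *Mup11*. Whether the remaining bases are unique was not tested. The read length is not given in the sources used here, and with windows of 150 bases the shares were larger, at 9.25% in *Mup2*, 22.5% in *Mup7*, 59.6% in *Mup17* and 100% in *Mup3* and *Mup21*. Within these transcripts the unique part was thus small in *Mup2*, and to a lesser degree in *Mup1*, *Mup7*, *Mup10* and *Mup11*. In *Mup3* and *Mup21* it was nearly the whole transcript. The reads were aligned to the genome of C57BL/6J, and whether TALLYHO mice carry the same set of copies was not tested.

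The sum of the 9 members takes up exchange of reads among them, but not exchange with other copies, such as *Mup12* for *Mup1* or *Mup18* for *Mup11*, which the sum over all *Mup* rows covers. In vehicle-treated mice it was 5366 CPM in G1, 4181 in G4, 5965 in G6, 7137 in G9, 10700.1 in G10, 2615 in G11 and 9520 in G13. In indole-treated mice it was 15311 CPM in G2, 5343 in G3, 7118 in G5, 4813 in G7, 5697 in G8, 12452 in G12 and 10416 in G14. The groups overlapped between 4813 and 10700.1 CPM, while the 2 lowest mice (G11 and G4) had received vehicle and the 2 highest (G2 and G12) indole. As a share of all counted reads the 9 genes held between 0.259% (G11) and 1.64% (G2). Over all 49 rows named *Mup*, a sum chosen after the data had been seen, the range was 3350 CPM in G11 to 20089 CPM in G2. The highest mouse exceeded the lowest 5.86-fold for the 9 members.

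**Figure D1:**
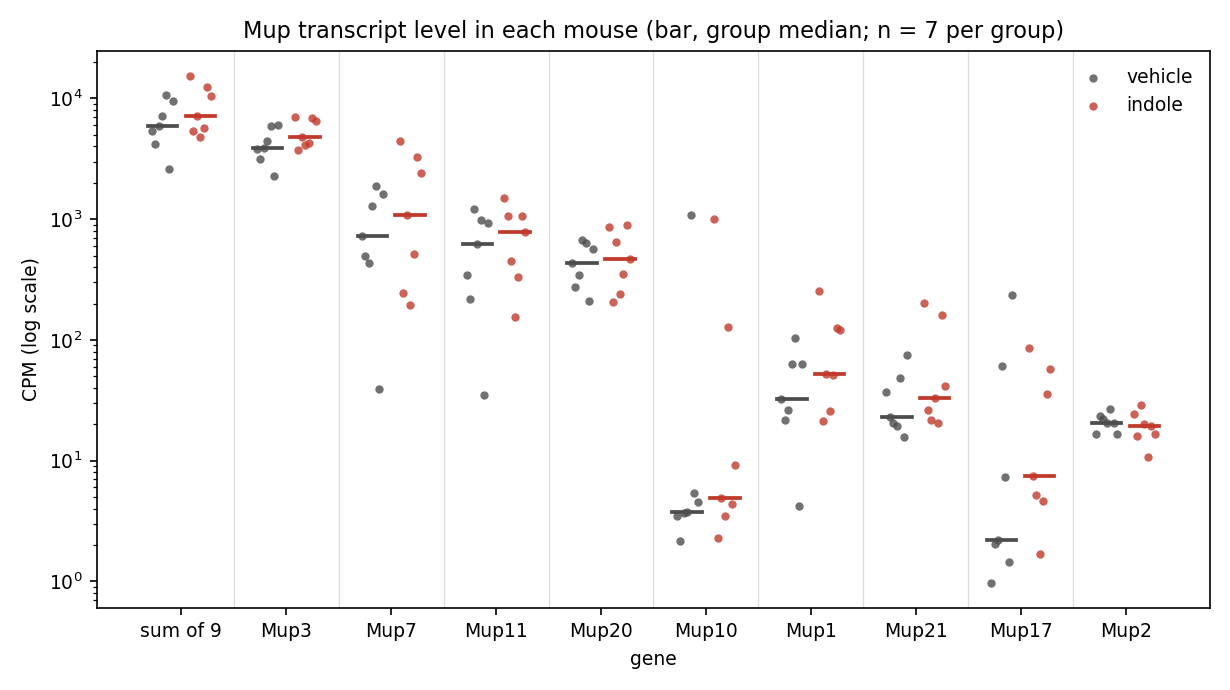
Level of the sum and of each member in the 14 mice, in CPM on a log scale, with vehicle-treated mice in grey, indole-treated mice in red and a bar at each group's median. The groups overlap for every gene, *Mup10* sits near the bottom in 11 mice and above 100 CPM in 3, and *Mup2* stays within 10.6 to 29.0 CPM.

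*Mup3*, a divergent copy whose reads can nearly all be placed, had the most counted reads of the members in every mouse. Vehicle-treated mice ranged from 2282 CPM (G11) to 6011 CPM (G13) with a median of 3905 CPM, and indole-treated mice from 3759 CPM (G3) to 6996 CPM (G2) with a median of 4831 CPM. It made up 45.7% of the member sum in G2, where the sum was highest, and 87.3% in G11, where the sum was lowest. The make-up of the counted pool thus changed with its size, while copies with few unique windows may be under-represented in it.

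*Mup20*, which encodes darcin, held a middle level in all mice. The vehicle group ran from 211 CPM (G11) through a median of 435 CPM to 671 CPM (G9), and the indole group ran from 205 CPM (G3) through a median of 465 CPM to 891 CPM (G12). No mouse lacked it, and the lowest mice of both groups stood side by side. *Mup21*, the close relative of *Mup3*, was lower, from 15.8 CPM (G11) to 74.9 CPM (G13) around a median of 22.9 CPM in vehicle-treated mice, and from 20.5 CPM (G8) to 203 CPM (G2) around 32.9 CPM in indole-treated mice. Both mice above 100 CPM of *Mup21* had received indole (G2 and G12 at 203 and 162 CPM), and the other 5 indole-treated mice lay within the vehicle range.

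Among the near-identical copies, *Mup7* had the most counted reads on average and moved the sum most. It was 720.0 CPM in G1, 493 in G4, 431 in G6, 1276 in G9, 1884 in G10, 39.5 in G11 and 1617 in G13. In the indole group it was 4399 CPM in G2, 244 in G3, 1076 in G5, 194 in G7, 513 in G8, 3286 in G12 and 2425 in G14. The indole group thus held the 3 highest mice, and also 2 of the 3 lowest, so that its own range of 194 to 4399 CPM took in most of the vehicle group. *Mup1*, a copy that has been studied for effects on glucose and lipid metabolism, kept nearly the same order of mice at a lower level, from 4.21 CPM (G11) to 104 CPM (G10) with vehicle (median 32.1 CPM) and from 21.4 CPM (G3) to 252 CPM (G2) with indole (median 52.5 CPM).

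*Mup11* ranged from 35.2 CPM (G11) to 1212 CPM (G6) in the vehicle group around a median of 619 CPM, and from 156 CPM (G7) to 1487 CPM (G2) in the indole group around 782 CPM. It did not keep the order of the other copies, since G6 and G3 were among its highest mice but among the lower ones for *Mup7* and *Mup1*. Its nearest copy *Mup18* showed where these mice differed, an observation made after the values had been seen. *Mup18* lay between 0.321 and 15.6 CPM in 4 mice (G3, G6, G10 and G12) and between 125 and 661 CPM in the other 10, while *Mup11* lay between 984 and 1212 CPM in those 4 and between 35.2 and 1487 CPM in the 10. Added together, *Mup11* and *Mup18* had a spread of 0.90, against 1.503 for *Mup11* and 3.74 for *Mup18* alone. Across the 14 mice the correlation of *Mup11* with *Mup18* was *r*=−0.38, a description of mice that share one normalisation. Whether reads pass from one copy to the other or the copies themselves differ between mice was not tested.

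*Mup10* was near the bottom in most mice and high in 3. It was 1086 CPM in vehicle-treated mouse G10, 1006 CPM in indole-treated mouse G2 and 128 CPM in indole-treated mouse G8. In the other 11 mice it lay between 2.14 and 9.14 CPM. These were counts of 16025, 19153 and 1902 reads against 39 to 156 reads in the others. The high mice belonged to both groups, and nothing in the labels sets them apart. The copy that shares most windows of 100 bases with *Mup10* (704 of 828) is *Mup22*, not a member, which was 487 CPM in G10, 501 CPM in G2 and 1068 CPM in G8 and ran from 461 to 2017 CPM over all mice. It was thus low in the 2 mice with most *Mup10*, with *r*=−0.44 over the 14 mice, an observation made after the values had been seen. Its lowest mouse, however, was G11 (461 CPM), where *Mup10* was 5.37 CPM. Whether reads pass between these copies was not tested. *Mup2*, which shares 99.3% of its coding bases with *Mup10*, was 26.8, 24.5 and 10.6 CPM in G10, G2 and G8.

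*Mup17* was nearly as uneven. In the vehicle group it was 235 CPM in G13, 60.2 CPM in G9 and between 0.979 and 7.32 CPM in the other 5 mice. In the indole group it was 86.3 CPM in G2, 57.9 CPM in G14, 36.0 CPM in G12 and between 1.70 and 7.49 CPM in the other 4. No mouse fell between 7.49 and 36.0 CPM, and the 5 high mice were divided between the groups. *Mup2* was the steadiest member, from 16.5 to 26.8 CPM in vehicle-treated mice (median 20.7 CPM) and from 10.6 to 29.0 CPM in indole-treated mice (median 19.4 CPM).

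**Figure D2:**
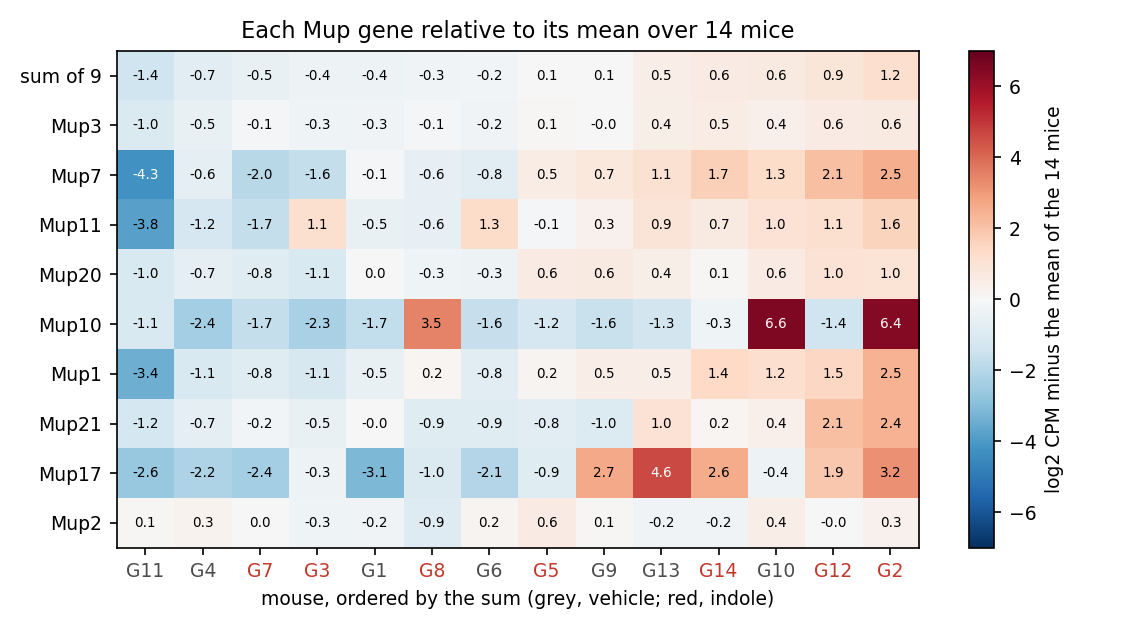
Heat map of log2 CPM minus each gene's mean over the 14 mice, with mice ordered by the sum of the 9 members (grey labels, vehicle; red labels, indole). Most rows run from blue in G11 to red in G2, *Mup10* is high in G8, G10 and G2 alone, *Mup11* is high in G3 and G6 against that order, and *Mup2* shows no trend along it.

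Per kilobase of annotated gene length, the mean over 14 mice was 4467 CPM for *Mup3*, 1286 for *Mup7*, 523 for *Mup20*, 439 for *Mup11* and 116 for *Mup10*. Below these came *Mup21* at 78.8, *Mup1* at 43.6, *Mup17* at 39.2 and *Mup2* at 15.1 CPM per kilobase. The ranges over mice overlapped between every pair of neighbours in this order, although *Mup3* was above the other 8 within each mouse. These values divide uniquely placed reads by the full gene length. Of the windows of 100 bases, 97.1% were unique in *Mup3* but 12.9% in *Mup7* and 2.66% in *Mup2*. The order is thus one of counted reads, and the order of the transcripts themselves cannot be read from it.

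The promoters of the copies, which had unlike counts of reads, were compared next. RefSeq windows (GRCm38.p6, 250 bases before to 50 bases after the start) were found for 7 of the 9 members, all but *Mup1* and *Mup20*. Excerpts of 77 bases are shown for 4 of them, namely *Mup2* (steady counts), *Mup10* and *Mup17* (uneven counts) and *Mup3* (most counted reads). They are lined up on the letters TATATAA, which are in capitals.
Mup2: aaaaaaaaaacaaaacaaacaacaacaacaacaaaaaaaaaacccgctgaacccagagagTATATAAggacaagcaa
Mup17: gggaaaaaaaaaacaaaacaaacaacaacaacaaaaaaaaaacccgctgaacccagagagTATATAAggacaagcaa
Mup10: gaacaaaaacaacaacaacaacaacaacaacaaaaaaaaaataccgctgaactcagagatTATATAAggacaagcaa
Mup3: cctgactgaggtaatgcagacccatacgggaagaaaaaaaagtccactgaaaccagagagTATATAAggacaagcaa
These excerpts lie at chr4:60139867-60139943 (*Mup2*), chr4:61595841-61595917 (*Mup17*), chr4:60582169-60582245 (*Mup10*) and chr4:62087312-62087388 (*Mup3*), all on the minus strand. The letters TATATAA occurred, on either strand, in 6 of the 7 windows, all but that of *Mup7*, whose annotated start lies farther upstream, and in 3.24% of 32851 promoter windows of the mouse genome. Their first base stood 27 bases before the RefSeq start in *Mup2*, 30 in *Mup10*, 25 in *Mup17*, 11 in *Mup3*, 8 in *Mup21* and 2 in *Mup11*. For *Mup2* the RefSeq window (60139807–60140106) lies inside the span of the counted gene (60135932–60154289), away from its start in the deposited table. *Mup2* and *Mup17* shared 98.3% of their aligned promoter bases, *Mup2* and *Mup10* shared 94.3%, and *Mup3* and *Mup2* shared 76.8%. The letters TTCNNNGAA, the core that STAT factors are known to bind, were in 8.30% of all windows and in none of the 7. The letters TGTTCT were in 19.0% of all windows and, of the members, in those of *Mup3* and *Mup21*. A match or its absence in so short a window says nothing of the factor itself.

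The spread between mice set most members apart from the rest of the transcriptome in size, as the way they were chosen implies. It was 3.18 on the log2 scale for *Mup10*, 2.57 for *Mup17*, 1.86 for *Mup7*, 1.503 for *Mup11*, 1.41 for *Mup1* and 1.13 for *Mup21*, against a median of 0.24 over the 12653 genes tested. *Mup20* had a spread of 0.75, *Mup3* of 0.44 and *Mup2* of 0.37. Counted from the widest, *Mup10* was number 2 and *Mup17* number 4 of all genes, and *Mup2* was number 3345. The sum of the members had a spread of 0.68, and 0.59 without G11. Of the 10 widest among the 1315 genes with a mean of at least 100 CPM, 6 were *Mup* genes (*Mup10*, *Mup7* and *Mup11* among them). *Mup10* reached that mean through its 3 high mice, since its median was 4.44 CPM. The rest of the 10 were the acute-phase genes *Saa1* and *Saa2*, the female-biased *A1bg* and the male-biased *Serpina1e*. The highest mouse exceeded the lowest 507-fold for *Mup10*, 240-fold for *Mup17*, 111-fold for *Mup7*, 59.9-fold for *Mup1*, 42.2-fold for *Mup11* and 12.8-fold for *Mup21*. For *Mup20*, *Mup3* and *Mup2* this ratio was 4.34, 3.07 and 2.73.

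**Figure D3:**
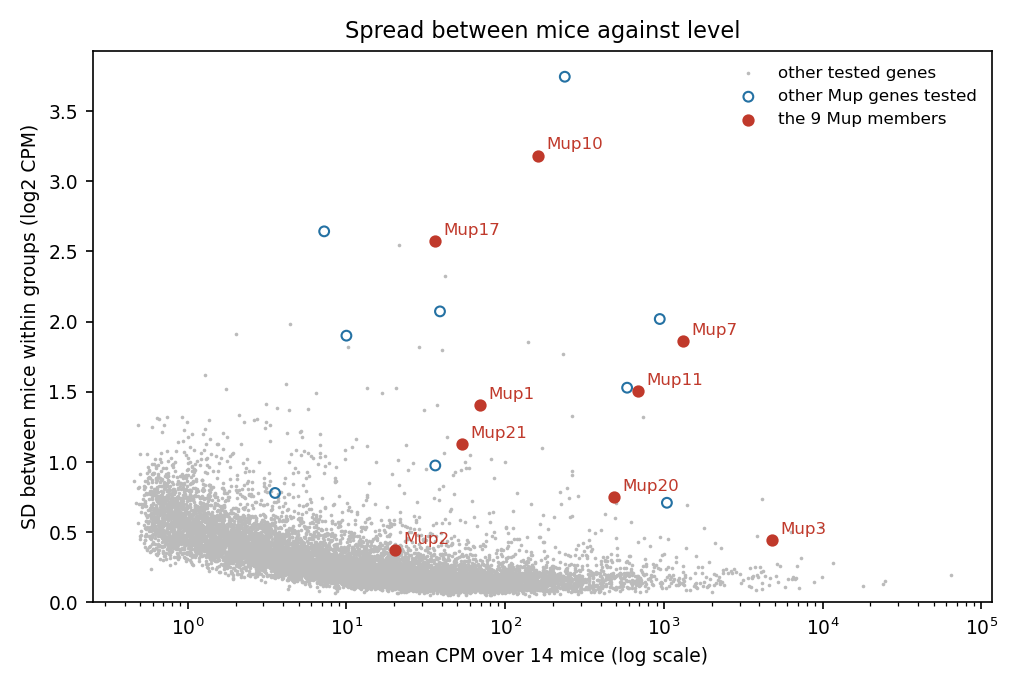
SD between mice within groups (log2 CPM) against mean CPM over 14 mice (log scale) for each of the 12653 genes tested, with the 9 members in red and 9 other *Mup* rows as open blue circles. *Mup10* and *Mup17* lie highest among the members at 3.18 and 2.57, *Mup2* lies within the cloud of genes of its level, and the highest circle is *Mup18* at 3.74.

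Most genes next to the cluster did not share this spread. The 20 other genes tested within the interval or within 1000000 bases of it had a median spread of 0.24, the median of all genes. Of the 2 that lie inside the interval, *Gm13775* had a spread of 0.72, near the 0.75 of *Mup20*, and *Gm12909* of 0.51, both at low level (means of 5.97 and 3.07 CPM). *Gm13775* was also called between indole and vehicle (unadjusted *p*=0.0224 from edgeR), as were 3.81% of all genes tested.

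The members rose and fell together across the mice, with exceptions. Of the 36 pairs, 35 had a positive correlation of log2 CPM over the 14 mice (median *r*=0.61), and 15 had *r* above 0.7. *Mup1* went with *Mup7* (*r*=0.96) and with *Mup3* (*r*=0.96), with which it shares no window of 100 bases. *Mup20* went with *Mup7* (*r*=0.90) and *Mup1* (*r*=0.85). *Mup2* kept apart, with *r* between −0.06 and 0.29 to the others, and *Mup10* had *r* between 0.11 and 0.55. These correlations are descriptions over 14 mice whose libraries share one normalisation, and with group means removed the median was 0.60.

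Indole treatment was then compared with vehicle. The sum of the members averaged 6498±2864 CPM with vehicle and 8736±4054 CPM with indole (mean±SD, *n*=7 mice each), and the log2 fold change from the edgeR fit was 0.43 with a standard error of 0.35. This is smaller than the spread of 0.68 between mice, and the vehicle median was exceeded by 4 of 7 mice given indole. Without G2 the log2 fold change was 0.24, and without G10 it was 0.59. For the sum of all *Mup* rows it was 0.42 (standard error 0.36).

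None of the 9 members was called in edgeR's quasi-likelihood test, either at an unadjusted *p* below 0.05, where 3.81% of the 12653 genes were called, or at an adjusted *p* below 0.05, where 0.0% were. By direction, 194 genes were called higher and 288 lower at the unadjusted threshold. The log2 fold changes (indole against vehicle) were 1.09 for *Mup21* (standard error 0.63, unadjusted *p*=0.112), 1.04 for *Mup1* (0.68, unadjusted *p*=0.151), 0.34 for *Mup3* (0.22, unadjusted *p*=0.137) and 0.91 for *Mup7* (0.84, unadjusted *p*=0.300). Those of *Mup11* (0.30), *Mup20* (0.22), *Mup10* (0.07), *Mup2* (−0.10) and *Mup17* (−0.64) had unadjusted *p* values between 0.567 and 0.971, and the adjusted *p* from edgeR was 0.998 for each of the 9. The fold changes were above 0 for 7 of the 9 with a median of 0.30, against a median of 0.00 over all genes tested. Since these genes vary together, they do not count as separate observations. Without G2 the log2 fold change was 0.57 for *Mup21*, 0.56 for *Mup1*, 0.48 for *Mup7*, 0.055 for *Mup11* and 0.059 for *Mup20*. That of *Mup20* was 0.042 without G12 and 0.097 without G11, that of *Mup11* was 0.087 without G11 and 0.20 without G12, and that of *Mup3* was 0.24 without G11.

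For *Mup10* the comparison rested on single mice. Its log2 fold change of 0.07 (standard error 1.86) became 5.43 without G10 (unadjusted *p*=0.00973, adjusted *p*=0.95 from edgeR) and −2.65 without G2. DESeq2, which by default replaces counts far from the rest of their group, gave 2.09 (unadjusted *p*=0.0141, adjusted *p*=0.999). For *Mup17* the log2 fold change of −0.64 became 1.18 without G13. Neither gene kept its direction with each mouse left out.

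The spread of the sum was set beside other genes of the liver. Among 12635 tested genes not named *Mup*, the correlation with the sum over 14 mice was centred on 0.00, with 6320 genes above 0, 88 above 0.7 and 68 below −0.7. The 5 genes most like the sum were *Slco1a1*, a transporter of organic anions (*r*=0.96), *Cyp2c67*, a cytochrome P450 (*r*=0.93), *Hsd3b5*, a steroid-metabolising enzyme of the male liver (*r*=0.92), *Cmah*, an enzyme of sialic acid synthesis (*r*=0.91), and *Ces3b*, a carboxylesterase (*r*=0.91). *Slco1a1* ran from 20.5 CPM in G11 to 466 CPM in G2, the mice that were lowest and highest for the *Mup* sum, and *Hsd3b5* from 0.388 CPM to 158 CPM in the same mice. With G2 and G11 left out, the 5 correlations lay between 0.85 and 0.92.

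The genes most opposed to the sum were *Slco1a4*, another organic anion transporter (*r*=−0.89), *Slc22a26*, an organic anion transporter of another family (*r*=−0.88), *Bst1*, an ectoenzyme that acts on NAD (*r*=−0.88), and *Cyp2b9*, a cytochrome P450 of the female liver (*r*=−0.88). *Cyp2b9* was 188 CPM in G11 and 0.63 CPM in G2. *Slco1a4* was 174 CPM in G11 and 52.2 CPM in G2. Without these mice the 4 correlations lay between −0.87 and −0.78.

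**Figure D4:**
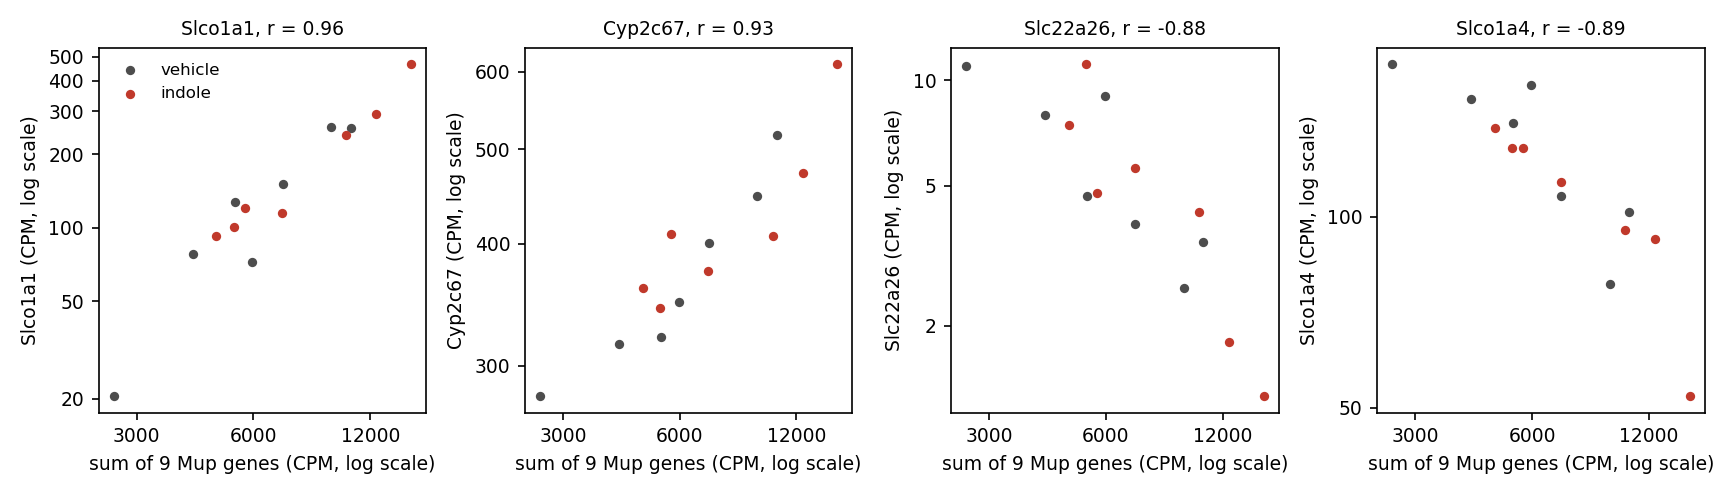
Level of *Slco1a1*, *Cyp2c67*, *Slc22a26* and *Slco1a4* against the sum of the 9 members in the 14 mice, both in CPM on log scales, vehicle in grey and indole in red. The first pair climbs with the sum (*r*=0.96 and 0.93) and the second pair falls with it (*r*=−0.88 and −0.89), with mice of both groups in the middle of the range, vehicle-treated G11 and G4 at its low end and indole-treated G12 and G2 at its high end.

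Sex-biased liver genes were then read as lists. Of 16 tested male-biased genes, 16 had a positive correlation with the *Mup* sum, with a median *r* of 0.865, and 12 were above 0.7. *Cyp2d9*, a steroid hydroxylase and the most abundant of them, had *r*=0.88 and ran from 1224 to 2284 CPM. Of 16 tested female-biased genes, 2 had a positive correlation, the median was −0.67 and 7 were below −0.7. *Cyp2c39*, the most abundant, had *r*=−0.72, or −0.48 without G2 and G11. *Cux2*, a repressor that is switched on in the female liver, also had *r*=−0.72, or −0.52 without G2 and G11. It was low throughout, from 0.105 CPM (G2) to 6.75 CPM (G4). No gene of either list was called between indole and vehicle at an unadjusted *p* below 0.05, where 3.81% of all genes tested were. The median log2 fold change was 0.31 for the male-biased list (15 of 16 higher) and −0.11 for the female-biased list (14 of 16 lower). Over all 12653 genes tested, 6489 were higher and 6164 lower. Since most genes of these lists vary with the *Mup* sum, they do not count as separate observations. For *Cux2* the log2 fold change was −1.05 (standard error 0.61, unadjusted *p*=0.110 from edgeR).

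Genes of the growth hormone pathway had a median spread of 0.26, against 0.58 for the male-biased and 0.68 for the female-biased list, and the widest, *Socs2*, had 0.69. Of 9 tested, 1 was called higher and 1 lower at an unadjusted *p* below 0.05, where 3.81% of all genes tested were called. *Ghr*, the growth hormone receptor, averaged 505 CPM with vehicle and 558 CPM with indole, and its log2 fold change was 0.14 (standard error 0.06, unadjusted *p*=0.0376, adjusted *p*=0.998 from edgeR). Its correlation with the *Mup* sum was 0.72, and 0.36 without G2 and G11. *Socs2*, a feedback inhibitor of the receptor, changed by −0.79 on the log2 scale (standard error 0.33, unadjusted *p*=0.0304, adjusted *p*=0.998) and *r*=−0.17. *Stat5b*, the factor that carries the signal to the nucleus, had a log2 fold change of −0.22 (unadjusted *p*=0.0578) and *r*=−0.14, and *Igf1*, the most abundant gene of the list and the hormone made in response, 0.07 (unadjusted *p*=0.472) and *r*=0.39. *Egfr*, also a target of growth hormone, had *r*=0.72.

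Of 22 liver transcription factors and nuclear receptors, 1 was called, against 3.81% of all genes tested. It was *Foxa3*, a forkhead factor, lower by a log2 fold change of −0.43 (standard error 0.18, unadjusted *p*=0.0265, adjusted *p*=0.998 from edgeR), with *r*=0.07 to the *Mup* sum. The median *r* of the list was 0.05. *Hnf4a*, the most abundant and a main factor of hepatocyte identity, had a log2 fold change of −0.07 (unadjusted *p*=0.322) and *r*=−0.26, and *Bcl6*, a repressor of female-biased genes, −0.17 (unadjusted *p*=0.701) and *r*=−0.08.

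The other lipocalins of the liver did not follow the *Mup* genes. Of 9 tested, 1 had a positive correlation with the sum, the median was −0.21 and none was called. *Rbp4*, the retinol carrier and the most abundant, had *r*=−0.03 and ran from 2820 to 4404 CPM. *Lcn2*, an acute-phase lipocalin, had *r*=−0.65, and −0.13 without G2 and G11, while *Orm3*, an orosomucoid gene, had *r*=−0.77, and −0.54 without them. The 20 abundant secreted proteins had a median *r* of −0.04, and 2 of them, both protease inhibitor genes, were above 0.7. *Serpina3k* had *r*=0.76 (0.88 without G2 and G11) and *Serpina1c* had *r*=0.72 (0.74 without them). Of these 20 genes 1 was called, against 3.81% of all genes tested. It was *Ttr*, a carrier of thyroid hormone and retinol, higher by 0.24 on the log2 scale (standard error 0.08, unadjusted *p*=0.011, adjusted *p*=0.998 from edgeR), with *r*=0.18.

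Mouse G11, lowest for the sum and for 5 members, stood apart in acute-phase transcripts too. *Saa1* was 2050.2 CPM in G11, 480 CPM in G13 and between 15.9 and 109 CPM in the other 12 mice, and *Lcn2* was 205 CPM in G11 and 45.5 CPM or less elsewhere. G13, next in *Saa1*, had a *Mup* sum of 9520 CPM, among the higher ones. G2, with the highest *Mup* sum, had the lowest *Saa1* (15.9 CPM) and the lowest *Lcn2* (3.36 CPM). The part of the acute-phase transcripts in the low *Mup* level of G11 was not tested.

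Markers of other cells were set beside the sum. All 11 Kupffer cell and macrophage markers had a negative correlation with it (median −0.44), as did 6 of 6 stellate cell markers (−0.39) and 5 of 5 bile duct markers (−0.49), while the 6 endothelial markers had a median of −0.07. Over the 8 hepatocyte markers the median was 0.07. The 5 erythroid markers were the one list whose members were all called, with 5 of 5 higher at an unadjusted *p* below 0.05 (median log2 fold change 1.07). At that threshold 3.81% of all genes tested were called, and no erythroid marker passed an adjusted *p* below 0.05. The erythroid markers had sums of 204 to 384 CPM in vehicle-treated and 263 to 1092 CPM in indole-treated mice. Their median correlation with the *Mup* sum was 0.40. Other calls were 1 hepatocyte marker higher (*Ttr*, log2 fold change 0.24), 1 endothelial marker higher (*Clec4g*, log2 fold change 0.37), 1 stellate cell marker lower (*Col1a1*, −0.67) and 1 bile duct marker lower (*Krt19*, −0.94). The part of these cells in the *Mup* values was not tested.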

How the data were processed

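Strand-specific polyA reads were aligned with HISAT2 to GRCm38, and for 14 mice the authors deposited the unnormalised count of uniquely mapped reads on each Ensembl gene. The counting tool is not given in the sources used here. All 14 columns were used, and groups were taken from the labels. No library was a copy of another (lowest chi-square per degree of freedom 16.8 within a group). Libraries were made from RNA of one lobe per mouse, so *p* values measure the spread between mice.

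The members, gene lists and tests were chosen with earlier results of these data known. Counts were tested in R 4.3.3 with edgeR 4.0.16 (TMM, filterByExpr, robust quasi-likelihood fit), with Benjamini–Hochberg adjustment over the 12653 genes that passed. Standard errors are the fold change divided by the square root of the F statistic. Correlations used log2 CPM with a prior count of 2. The script was tested on simulated counts. Alternatives were DESeq2 1.42.0, voom of limma 3.58.1, other scalings and filters, and leaving out each mouse. The text names all members, the called and the most abundant gene of each list, the 5 genes most like and most unlike the sum (mean of at least 1 CPM) and 6 regulators, except 1 gene that is not reported here; *Mup18*, *Mup22*, *Saa1*, *Saa2*, *Lcn2*, *Orm3*, *Serpina3k*, *Serpina1c*, *Egfr* and the genes next to the cluster were added after their values were seen. Coding windows came from GENCODE vM21 and promoters from RefSeq, both on GRCm38. For each gene the coding transcript closest to 540 bases, the most common coding length, was used. The lengths, read counts per gene and sequence windows cover annotated copies only.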

Additional observations from a re-analysis of the deposited data

Results flagged for a closer look

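In 22 checks of the highest and lowest mouse of a group (9 members and both sums in each group), 3 mice stood apart by Dixon's ratio, the gap to the next mouse as a share of the group's range, exceeding its critical value for 7 mice. For normally distributed values chance flags about 1 in 20 groups. The ratios were taken on CPM and these genes were selected on their spread, so the ratios are descriptions that this rate does not apply to. For *Mup10* in the vehicle group, G10 at 1086 CPM had a ratio of 0.997, the next mouse being at 5.37 CPM. For *Mup10* in the indole group, G2 at 1006 CPM had a ratio of 0.875, the next mouse, G8, being at 128 CPM. For *Mup17* in the vehicle group, G13 at 235 CPM had a ratio of 0.747, the next mouse, G9, being at 60.2 CPM.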

How the results depend on the processing

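The log2 fold change of the member sum was between 0.24 and 0.59 with each mouse left out and between 0.34 and 0.43 under the other settings, and that of all *Mup* rows between 0.25 and 0.55. The spread of the sum was 0.59 to 0.71 with each mouse left out and 0.67 to 0.69 otherwise. Genes at an unadjusted *p* below 0.05 numbered 386 to 627 with each mouse left out and 1336 without a filter on low counts, and 1 gene passed the adjusted threshold with DESeq2 on the filtered genes. Calls in the 6 pathway and comparison lists numbered 4, and 3 to 10 with each mouse left out (10 without G3, 7 without G6 or without G10). With voom the direction turned for *Mup20* (−0.036) and *Mup17* (0.33). With each mouse left out the log2 fold change ran from −2.65 to 5.43 for *Mup10* (7 of 14 below 0), from −1.24 to 1.18 for *Mup17* and from −0.22 to 0.0022 for *Mup2*. The cause of these changes was not tested beyond the mouse left out. The median correlation of the male-biased list with the sum lay between 0.821 and 0.862 under its alternatives. No paired analysis was possible because each mouse has its own number. Depth limits *Mup17* most, with 19 reads in its lowest mouse.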
